A study of Homo sapiens with 4 samples.

Results

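CCL2, PTGS2, TRAF1 and IRAK2 are 4 genes of the inflammatory response that differed in opposite directions between U2OS cells given BRPF3 siRNA and cells given control siRNA. They were chosen by name, for that difference, and each is represented by 1 of the 16098 probe sets that the annotation gives a gene symbol. All 4 were bright enough to enter the comparison, which covered 10696 genes. U2OS is a human osteosarcoma line, and BRPF3 is a bromodomain scaffold of histone acetyltransferase complexes. RNA was taken 48 hours after transfection of siRNA at 50 nM with a lipid reagent, so both groups carried an siRNA and the reagent. The control siRNA, called negative control or scramble in the labels, was measured on 2 arrays and the BRPF3 siRNA on 2 arrays, described as biological replicates. The labels name no siRNA sequence and no second BRPF3 siRNA, and they do not say how far the cultures of a group were separate, so p-values measure only the spread between these arrays.

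CCL2 encodes a secreted chemokine that draws monocytes through the receptor CCR2, and PTGS2 encodes the inducible cyclooxygenase, the first enzyme that turns arachidonic acid into prostaglandins. IRAK2 is a kinase-like protein that joins MYD88 below the IL-1 and Toll-like receptors and helps pass the signal to TRAF6. TRAF1 is an adaptor of TNF family receptors that binds TRAF2 and the cellular IAP proteins. CCL2, PTGS2 and TRAF1 are textbook targets of NF-kappaB. In mesenchymal and bone-forming cells CCL2 and PTGS2 are textbook products of IL-1 and TNF stimulation, and no such ligand is named in the labels of these samples.

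The stretches just before the transcription start sites are shown because genes of either direction are among them. RefSeq windows of 250 bases (build GRCh38.p14) were found for 3 of the 4 genes, and TRAF1 has windows for 3 start sites, of which the farthest upstream is printed. Each is written 5′ to 3′ on the strand of its gene and ends at the base before the start site. Capitals mark every match, on either strand, to a TATA box (TATAAA), the core of a cAMP response element (CGTCA), an AP-1 site (TGANTCA), a C/EBP site (TTNNGCAAT), a GC box (GGGCGG) or the NF-kappaB consensus (GGGRNNYYCC). In these patterns R stands for A or G, Y for C or T and N for any base.
PTGS2 (chr1:186680424-186680673, minus strand): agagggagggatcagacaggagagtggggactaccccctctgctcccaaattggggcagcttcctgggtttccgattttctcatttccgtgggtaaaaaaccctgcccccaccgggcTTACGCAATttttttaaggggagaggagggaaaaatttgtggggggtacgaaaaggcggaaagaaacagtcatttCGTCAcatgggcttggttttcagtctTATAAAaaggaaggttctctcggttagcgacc
IRAK2 (chr3:10164669-10164918, plus strand): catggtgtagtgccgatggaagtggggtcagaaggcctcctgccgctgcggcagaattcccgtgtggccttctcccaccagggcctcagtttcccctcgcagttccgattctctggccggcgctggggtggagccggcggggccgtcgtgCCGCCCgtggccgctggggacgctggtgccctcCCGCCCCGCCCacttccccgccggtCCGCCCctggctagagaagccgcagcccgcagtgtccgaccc
TRAF1 (chr9:120929172-120929421, minus strand): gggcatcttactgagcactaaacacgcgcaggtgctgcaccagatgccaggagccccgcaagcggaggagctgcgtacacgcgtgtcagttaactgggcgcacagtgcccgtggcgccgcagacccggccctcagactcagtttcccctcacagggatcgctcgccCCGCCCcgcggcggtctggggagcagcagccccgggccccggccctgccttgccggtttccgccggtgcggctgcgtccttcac

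The PTGS2 window held a TATA box 32 to 27 bases before the start site, a core of a cAMP response element 58 to 54 bases before it and a C/EBP match 133 to 125 bases before it. These matches were found in 10.7%, 21.2% and 2.04% of 35114 RefSeq windows of that length. The windows of IRAK2 and of the farthest upstream TRAF1 start site held no TATA box and were rich in G and C, at 72.0% and 70.0%, against 50.4% for PTGS2 and a median of 58.0% over all windows. GC boxes were matched at 4 places in the IRAK2 window, of which 2 share a base, and at 1 place in the TRAF1 window, and 42.6% of all windows held at least 1. The other TRAF1 windows, with 54.0% and 57.2% G and C, held none of the capital-marked motifs. An NF-kappaB consensus match was present in 9.96% of all windows and an AP-1 match in 6.57%. An exact match to either is not in these 5 windows. Sites that depart from a pattern were not counted, and the stretch gggactaccc in the PTGS2 window differs from the NF-kappaB pattern by 1 letter. An E-box (CANNTG), present in 61.8% of all windows, was matched in the PTGS2 window and in all 3 TRAF1 windows and not in the IRAK2 window. The arrays do not tell the TRAF1 start sites apart, and a match is a string of letters and no measured binding. CCL2 has no window, so 1 lower gene stands beside 2 higher ones. A link of these features to the direction of the differences was not tested.

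All values below are log2 values as deposited, so a difference of 1 is a doubling, and levels of different genes on such arrays are not comparable with each other. CCL2 stood at 8.07 and 8.03 with control siRNA and at 6.9999 and 6.74 with BRPF3 siRNA. The control arrays nearly coincided and both BRPF3 siRNA arrays lay far below them. The difference of the means was -1.18 ± 0.11 on the log2 scale (n = 2 arrays in each group; here and below ± gives the moderated SE of limma), or 2.26-fold lower, and ranked as the 20th largest decrease among the 10696 genes. Any BRPF3 siRNA array was lower than any control array by 1.03 to 1.33 (log2 differences of -1.03 and -1.33), while the arrays of a group were at most 0.26 apart. In a bulk sample fewer cells that make a transcript and less of it per cell cannot be told apart.

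PTGS2 was at 6.62 and 6.32 with control siRNA and at 5.84 and 5.62 with BRPF3 siRNA. Both BRPF3 siRNA arrays were below both control arrays, but the control arrays themselves were 0.31 apart, a wider gap than 93.4% of tested genes showed. The difference was -0.74 ± 0.13, or 1.67-fold lower, and the 4 differences between single arrays of the groups ran from -0.47 to -1.001. Control replicate 1 was the higher of the control arrays, and the PTGS2 difference was -0.58 without it and -0.89 without control replicate 2.

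TRAF1 ran the other way, with 6.67 and 6.32 in control cells and 7.46 and 7.41 after BRPF3 siRNA. Here the BRPF3 siRNA arrays were 0.06 apart and the control arrays 0.35, wider than for 95.4% of tested genes. The difference was 0.94 ± 0.13, or 1.92-fold higher, with single-array differences from 0.74 to 1.14. It ranked as the 44th largest increase. Control replicate 1 was the higher control array here as for PTGS2, so the TRAF1 difference was 1.11 without it and 0.76 without control replicate 2, in the opposite sense to PTGS2.

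IRAK2 had the smallest difference of the 4 genes and the tightest control arrays. It was at 5.89 and 5.92 in control cells and at 6.42 and 6.33 after BRPF3 siRNA, 0.03 apart within the control group and 0.09 within the other. The difference was 0.47 ± 0.08, or 1.38-fold higher, and single-array differences ran from 0.41 to 0.53. Its own arrays alone would give an SE of 0.05. Limma's value is larger because it draws the variance of each gene towards that of all genes. For the other genes of the 4 limma's value is the smaller one. Their own arrays alone would give 0.13 for CCL2, 0.19 for PTGS2 and 0.18 for TRAF1, against 0.11, 0.13 and 0.13. In size the IRAK2 difference exceeded that of 90.2% of tested genes, against 99.7% for CCL2, 97.8% for PTGS2 and 99.2% for TRAF1.

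The arrays of the groups overlapped for 0 of the 4 genes, and 63.2% of all tested genes had arrays that did not overlap. Because the genes were picked on this contrast, that count and the sizes above describe them and carry no test. With 2 arrays against 2 an exact two-sided permutation test of a single value cannot give a p under 0.333. Every array of the 4 genes lay at least 1.04 above the intensity bound of 4.59 that a gene's mean had to reach. The directions and sizes changed little with the normalization. After quantile normalization the differences were -1.14 for CCL2, -0.74 for PTGS2, 0.96 for TRAF1 and 0.47 for IRAK2.

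**Figure D1:**
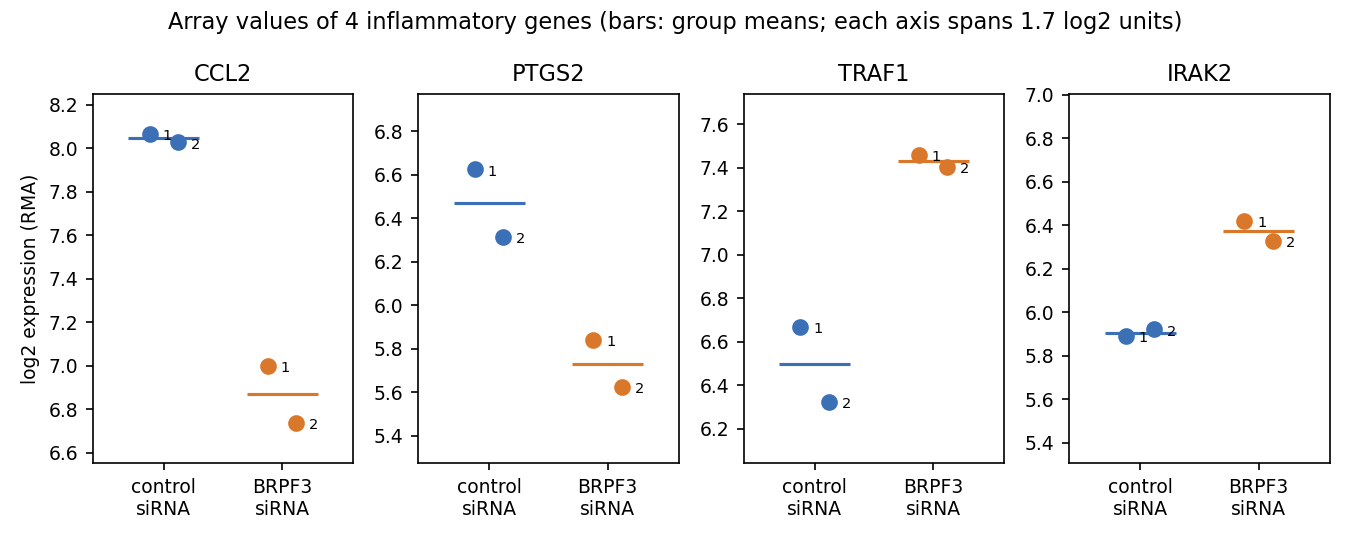
Log2 expression of CCL2, PTGS2, TRAF1 and IRAK2 on the 2 control siRNA arrays (blue) and the 2 BRPF3 siRNA arrays (orange); points are arrays, numbered by replicate, and bars are group means. CCL2 and PTGS2 are lower on both BRPF3 siRNA arrays, TRAF1 and IRAK2 are higher, and the control arrays of PTGS2 and TRAF1 are spread by 0.31 and 0.35.

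The genes around these 4 in their pathways were followed in 10 lists of 254 genes, without the 4 genes themselves, of which 169 had a named probe set and 134 reached the intensity bound. Of the 134, 11 were higher and 15 lower after BRPF3 siRNA by limma's moderated test with Benjamini-Hochberg adjustment over all 10696 genes (adjusted p under 0.05). That is 19.4% of the tested pathway genes, beside 15.8% of all tested genes (6.32% higher and 9.44% lower). The counts of every single list below are to be read beside these same shares of all tested genes. Their median difference was -0.02, and that of all tested genes -0.03. The count of 26 pathway genes dropped to 0 when control replicate 1 was left out and to 0 when control replicate 2 was (36 and 35 at an unadjusted p under 0.05), and to 12 when either BRPF3 siRNA array was. It was also 7 without the intensity filter, where dim genes enter both limma's variance estimate and the adjustment. The part of each in that drop was not tested. The 8 genes that kept their call whichever BRPF3 siRNA array was left out were CCL24, CXCL16, TLR4, PELI1, BDKRB1, MAP2K6, MAP3K8 and RIGI, while 5 lost it with 1 of these arrays left out and 13 with either. Over all tested genes 676 were higher and 1010 lower as deposited, 764 and 718 after quantile normalization, and 766 and 736 after cyclic loess. For the pathway genes these settings gave 13 higher and 13 lower.

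**Figure D2:**
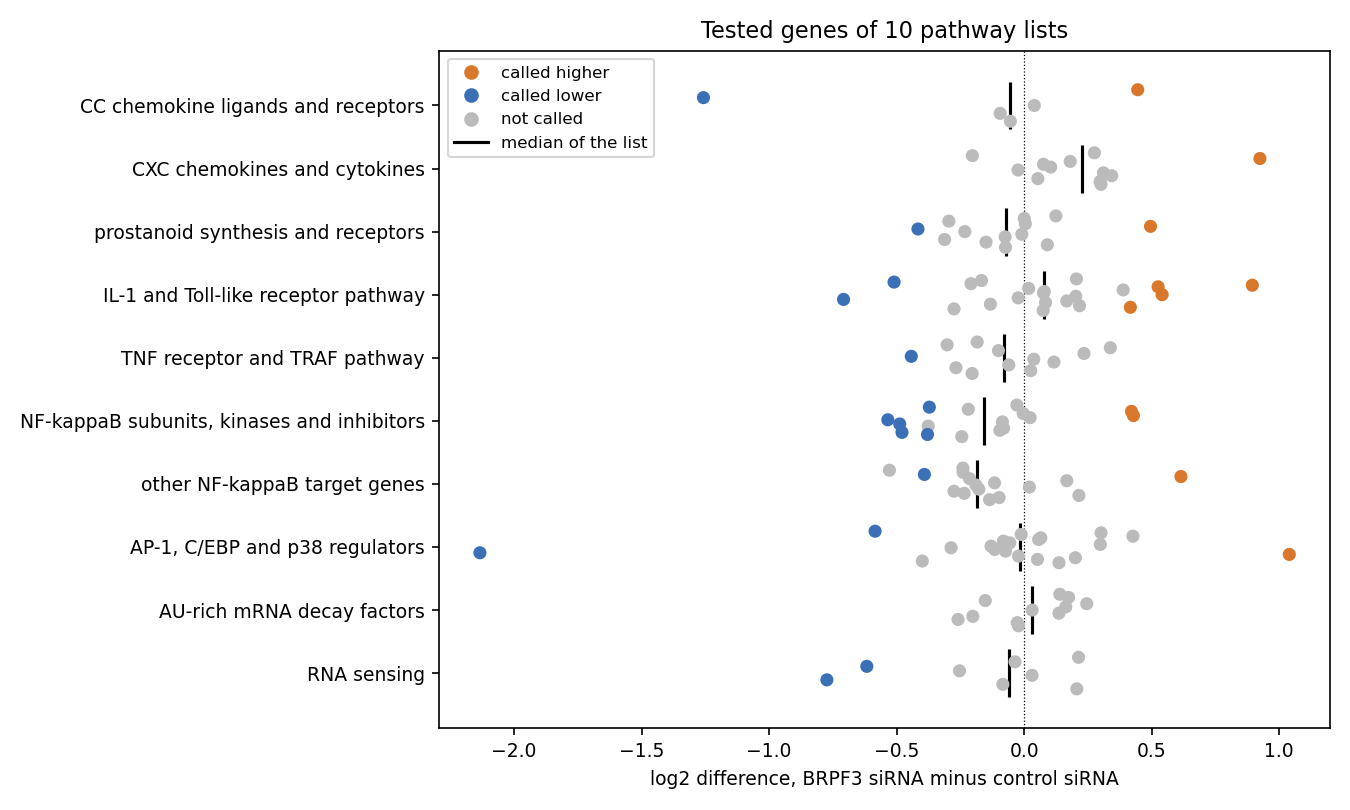
Log2 differences (BRPF3 siRNA minus control siRNA) of the 134 tested genes of the 10 pathway lists, 1 point per gene, with each list's median as a black line. Called genes lie on both sides of 0 in 6 of the lists, and the AU-rich decay list has none.

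CCL2 was 1 of a family of ligands whose other members lay on both sides of the intensity bound. Of 13 named CC chemokine ligands and receptors, 8 were below the bound, and of the 5 tested 1 was called higher and 1 lower. CCL24, an eosinophil chemokine that acts through CCR3, fell by 1.26 ± 0.11 (limma adjusted p = 0.00878), from 7.16 and 7.14 to 6.04 and 5.75. The arrays of CCL24 thus lay in the same order as those of CCL2, and it was among the 3 tested genes closest to CCL2 in their array values. The gene called higher was CCL1, a T cell chemokine, at 4.60 and 4.51 against 5.02 and 4.98. Its control mean was under the bound, so it entered the test only through the group where it was higher and its call is no support. The call of CCL1 also ended with an intensity trend (adjusted p = 0.0507), without the intensity filter (adjusted p = 0.0669) and when any 1 array was left out. The inflammatory chemokines CCL5 (0.04 ± 0.15, adjusted p = 0.868) and CCL20 (-0.09 ± 0.12, adjusted p = 0.611) did not pass. CCL7, CCL11 and CCL8, the next named genes beside CCL2 in its chemokine cluster, were all below the bound, with CCL7 at 2.89 and 3.51 against 2.98 and 1.93, which overlap. CCR2, the receptor of CCL2, was at 3.51 and 3.32 against 3.28 and 3.28, also below the bound.

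Among 12 tested CXC chemokines and cytokines 1 rose and 0 fell. CXCL16, a membrane-bound chemokine that also serves as a scavenger receptor, rose from 7.40 on both control arrays to 8.32 and 8.33, by 0.92 ± 0.08 (limma adjusted p = 0.00756). The difference was above 0 for 10 of the 12 genes, with a median of 0.23, beside -0.03 for all tested genes. A shift of the list as a whole was not tested. The colony-stimulating factor CSF3 (0.31 ± 0.09, adjusted p = 0.0687), the membrane-anchored chemokine CX3CL1 (0.30 ± 0.09, adjusted p = 0.0842), LIF (-0.20 ± 0.14, adjusted p = 0.356) and IL11 (-0.02 ± 0.15, adjusted p = 0.921) did not pass. CXCL8, the neutrophil chemokine often induced together with CCL2, had a mean below the bound, at 4.76 and 4.61 against 4.62 and 4.17. IL6 was not analysed here.

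**Figure D3:**
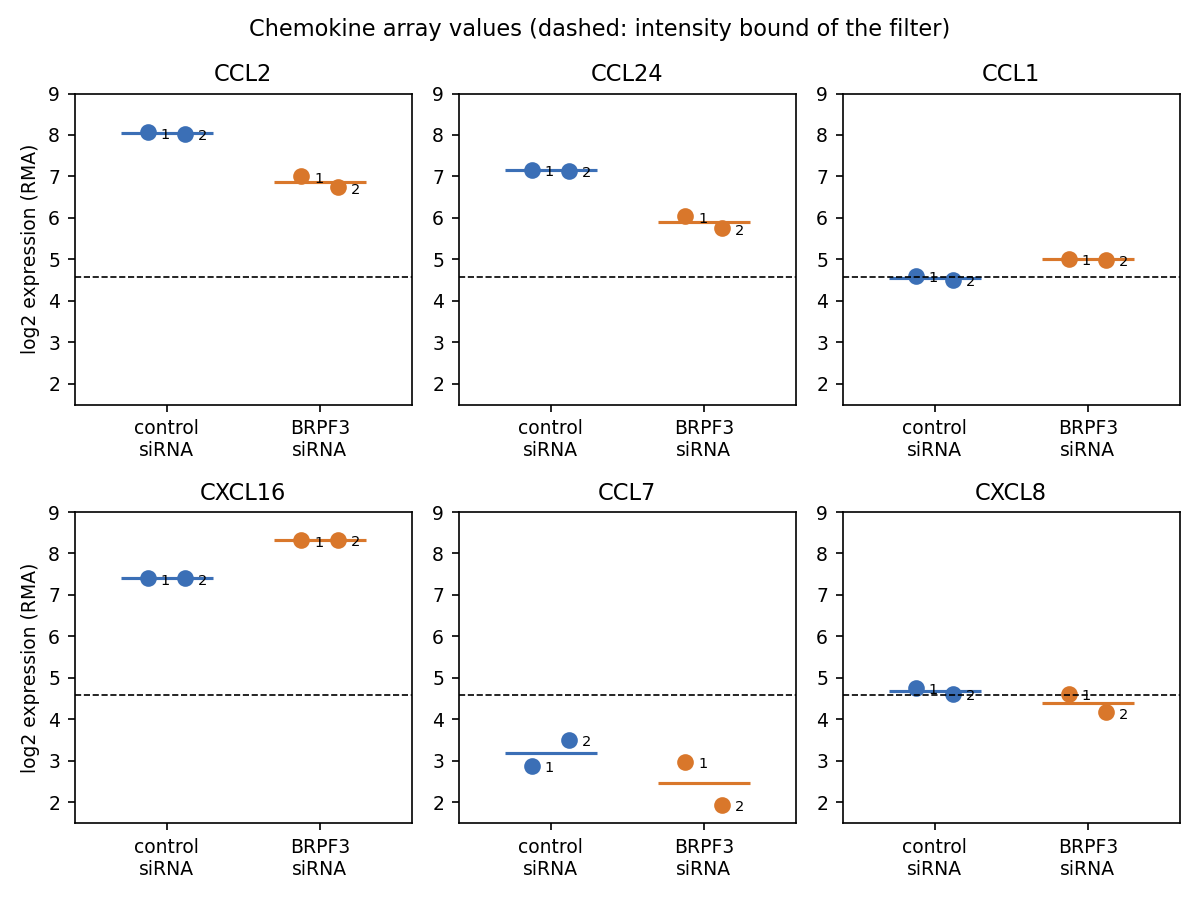
Log2 expression of 6 chemokine genes on the 2 control siRNA arrays (blue) and the 2 BRPF3 siRNA arrays (orange), with group means as bars and the intensity bound of 4.59 as a dashed line. CCL2 and CCL24 are lower and CXCL16 higher on both BRPF3 siRNA arrays, while CCL7 and CXCL8 lie near or below the bound with overlapping arrays.

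Around PTGS2, 13 genes of prostanoid synthesis, turnover and reception were tested, of which 1 rose, 1 fell and 11 did not pass. The constitutive cyclooxygenase PTGS1 was at 5.12 and 5.14 against 4.98 and 5.12, a difference of -0.07 ± 0.09 (limma adjusted p = 0.584). PTGES, the inducible prostaglandin E synthase that works after PTGS2, differed by -0.01 ± 0.09 (adjusted p = 0.951). The other synthases PTGES3 (-0.30 ± 0.08, adjusted p = 0.0540) and PTGES2 (-0.31 ± 0.10, adjusted p = 0.0929) did not pass either. The fallen gene was PTGR2, a reductase that degrades prostaglandins (-0.42 ± 0.09, adjusted p = 0.0356). The risen gene was ALOX5, which sends arachidonic acid towards leukotrienes (0.50 ± 0.08, adjusted p = 0.0198), while the prostaglandin F receptor PTGFR (0.12 ± 0.08, adjusted p = 0.323) did not pass. PTGR2 and ALOX5 lost their calls when any 1 of the 4 arrays was left out. With an intensity trend the list had 1 risen and 3 fallen genes. The prostaglandin E receptors PTGER3 and PTGER4 lay below the bound.

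IRAK2 belongs to IL-1 and Toll-like receptor signalling, the longest of the lists once filtered. Of its 21 other tested genes 4 rose and 2 fell, or 28.6% called beside 15.8% of all tested genes, and the median was 0.08. TLR4, the receptor for bacterial lipopolysaccharide, rose from 6.69 and 6.72 to 7.57 and 7.62, by 0.89 ± 0.08 (limma adjusted p = 0.00782). MYD88, the adaptor that recruits IRAK2, rose from 6.56 and 6.52 to 7.02 and 7.11, by 0.53 ± 0.08 (adjusted p = 0.0181). These genes stood, like IRAK2, higher on both BRPF3 siRNA arrays than on both control arrays. Arrays that do not overlap, in either direction, were found for 63.2% of all tested genes, so this is no particular likeness. The Pellino ubiquitin ligases, which act on IRAK proteins, split: PELI2 (0.54 ± 0.13, adjusted p = 0.0426) and PELI3 (0.42 ± 0.08, adjusted p = 0.0311) rose, and PELI1 fell from 7.81 and 7.92 to 7.19 and 7.13, by 0.71 ± 0.09 (adjusted p = 0.0123). TLR6, a partner of TLR2, fell by 0.51 ± 0.09 (adjusted p = 0.0217).

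Nearest to IRAK2 by sequence family, IRAK1 was at 8.71 and 8.67 in control cells and at 8.92 and 8.89 after BRPF3 siRNA. Its difference of 0.22 ± 0.08 did not pass (limma adjusted p = 0.109). IRAK3, the inhibitory member, was below the bound on all arrays, at 2.79 and 2.60 against 2.46 and 2.64. The kinase MAP3K7 (TAK1), which acts further down, did not pass (-0.28 ± 0.09, adjusted p = 0.0873). IL1R1, IRAK4 and TRAF6 were not analysed here. Without BRPF3 siRNA replicate 1 the list had 4 risen and 1 fallen gene, without BRPF3 siRNA replicate 2 it had 1 and 1, and without either control array 0 and 0.

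**Figure D4:**
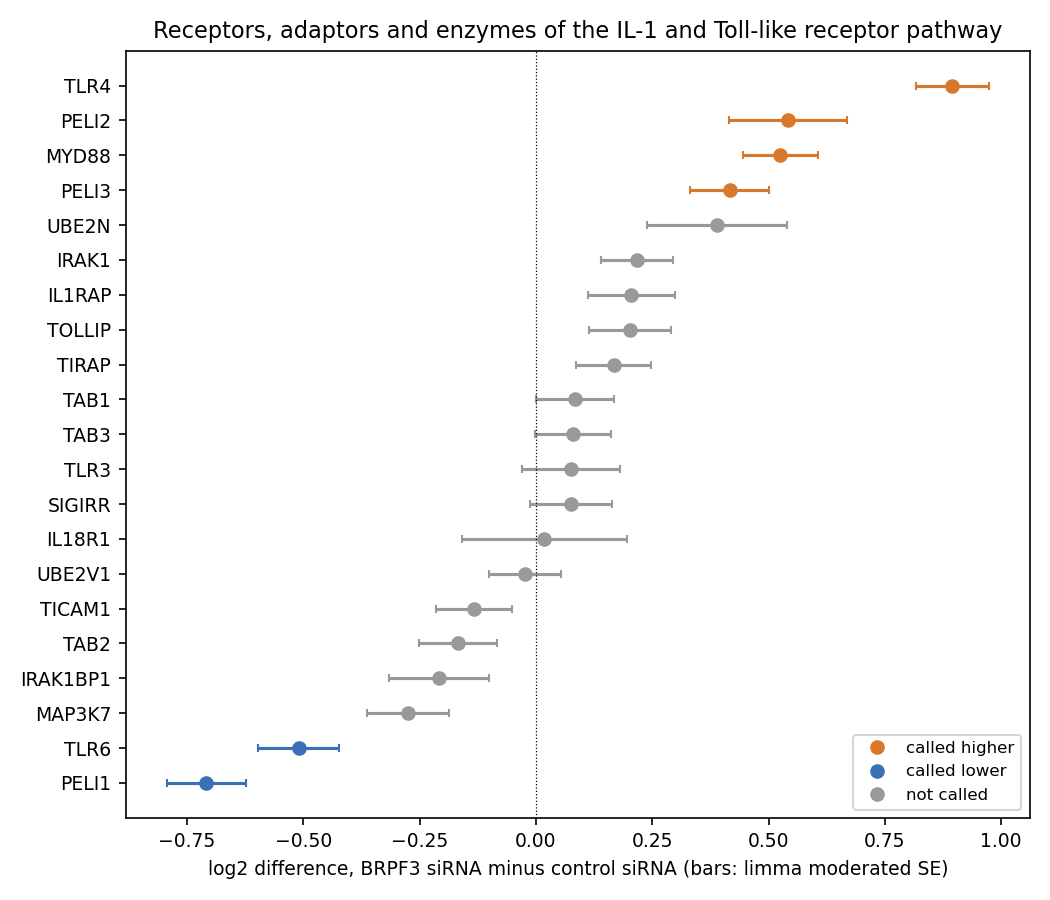
Log2 differences (BRPF3 siRNA minus control siRNA) of the 21 tested genes of the IL-1 and Toll-like receptor pathway, with limma's moderated SE as bars; orange and blue mark genes called higher and lower. TLR4, PELI2, MYD88 and PELI3 are the 4 called higher and PELI1 and TLR6 the 2 called lower, and IRAK2 itself is left out of the plot.

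Around TRAF1, 12 genes of TNF receptor and TRAF signalling were tested, and 0 rose and 1 fell. The other TRAF proteins did not pass: TRAF3 differed by 0.12 ± 0.09 (limma adjusted p = 0.375), TRAF5 by 0.24 ± 0.12 (adjusted p = 0.239) and TRAF4 by -0.20 ± 0.09 (adjusted p = 0.175). TRAF1 was thus the TRAF family gene with the largest difference among those tested here, and it had been chosen for that difference. The fallen gene was TRAF3IP1, a TRAF3-binding protein of intraflagellar transport (-0.44 ± 0.08, adjusted p = 0.0262), which lost its call when any 1 array was left out. TANK (-0.30 ± 0.09, adjusted p = 0.0796), a TRAF-binding scaffold, and the stress kinase MAP3K5 (0.34 ± 0.09, adjusted p = 0.0594) did not pass. With an intensity trend the list had 1 risen and 1 fallen gene. TRAF2, the main partner of TRAF1, was not analysed here.

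The genes of NF-kappaB itself, which CCL2, PTGS2 and TRAF1 are known to answer to, changed in both directions. Of 16 tested subunits, kinases and inhibitors 2 rose and 5 fell, or 43.8% called beside 15.8% of all tested genes, with a median of -0.16. REL, a subunit that activates transcription, rose by 0.43 ± 0.09 (limma adjusted p = 0.0327), and RBCK1 (HOIL-1), of the linear ubiquitin ligase complex, by 0.42 ± 0.08 (adjusted p = 0.0301). RNF31 (HOIP), the catalytic subunit of that same complex, fell by 0.53 ± 0.08 (adjusted p = 0.0181). The others that fell were the kinases TBK1 (-0.49 ± 0.10, adjusted p = 0.0307) and CHUK (-0.37 ± 0.09, adjusted p = 0.0481), the nuclear cofactor BCL3 (-0.48 ± 0.09, adjusted p = 0.0262) and TNIP3 (-0.38 ± 0.09, adjusted p = 0.0424), which restrains the pathway. RELA, the p65 subunit, differed by 0.02 ± 0.09 (adjusted p = 0.872) and NFKB1 by -0.38 ± 0.13 (adjusted p = 0.0975). The call of CHUK ended after quantile normalization (adjusted p = 0.0720) and that of TNIP3 with an intensity trend (adjusted p = 0.0652), and both ended with the replicate number as a block (adjusted p = 0.0610 and 0.0577). The list had 0 risen and 1 fallen gene without BRPF3 siRNA replicate 1, 0 and 2 without BRPF3 siRNA replicate 2, 0 and 0 without either control array, and 0 and 0 without the intensity filter. NFKBIA and TNFAIP3, feedback inhibitors, were not analysed here.

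Other genes that NF-kappaB can induce gave 1 risen and 1 fallen of 16 tested, with a median of -0.18. BDKRB1, the inducible bradykinin receptor, rose from 4.85 and 4.80 to 5.53 and 5.35, by 0.62 ± 0.09 (limma adjusted p = 0.0179). BCL2L1, which blocks apoptosis, fell by 0.39 ± 0.09 (adjusted p = 0.0405), a call that ended after quantile normalization (adjusted p = 0.0699). The adhesion molecules ICAM1 (-0.12 ± 0.09, adjusted p = 0.422) and VCAM1 (-0.28 ± 0.25, adjusted p = 0.481) did not pass. Neither did EBI3, a cytokine subunit (-0.24 ± 0.08, adjusted p = 0.0975), the stress gene IER3 (0.21 ± 0.11, adjusted p = 0.211) or the acute phase gene SAA1 (-0.53 ± 0.20, adjusted p = 0.121).

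CCL2 and PTGS2 also depend on p38, AP-1 and C/EBP signals in other settings. Of 20 tested regulators of this kind 1 rose and 2 fell as deposited, 3 and 2 after quantile normalization or cyclic loess, and 4 and 2 with an intensity trend. MAP2K6, a kinase that activates p38, fell from 6.72 and 6.92 to 4.99 and 4.38 (-2.13 ± 0.21, limma adjusted p = 0.00878), and MAP3K8 (TPL2), a kinase of the inflammatory ERK route, from 6.35 and 6.32 to 5.69 and 5.81 (-0.58 ± 0.08, adjusted p = 0.0157). The BRPF3 siRNA replicate 2 value of MAP2K6 lay under the intensity bound, where differences are compressed. DUSP1, a phosphatase that switches p38 off, rose from 9.11 and 8.41 to 9.85 and 9.75 (1.04 ± 0.22, adjusted p = 0.0342), a call lost when any 1 array was left out. The AP-1 genes FOS (-0.29 ± 0.21, adjusted p = 0.391), JUN (0.14 ± 0.10, adjusted p = 0.386), JUND (0.43 ± 0.11, adjusted p = 0.0506) and FOSL1 (-0.08 ± 0.14, adjusted p = 0.715) did not pass. In other immediate early genes of the list replicate 1 stood above replicate 2 in both groups, with EGR1 at 11.94 and 10.35 against 11.56 and 10.86, FOSB at 7.73 and 6.22 against 6.89 and 6.26, and JUNB at 9.58 and 8.79 against 9.27 and 8.96. Their group differences did not pass (adjusted p = 0.938, 0.603 and 0.864). CCL2, PTGS2 and TRAF1 were also higher on replicate 1 than on replicate 2 in both groups, though CCL2 by only 0.04 between control arrays. The part of this gap between arrays in their values was not tested.

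The PTGS2 message is a classical carrier of AU-rich elements, which mark it for rapid decay. Of 11 tested decay factors 0 rose and 0 fell in limma's adjusted test (2 at an unadjusted p under 0.05, and 1 risen and 1 fallen with an intensity trend), and their differences ran from -0.26 for the deadenylase PARN (adjusted p = 0.0821) to 0.25 for the decapping enzyme DCP2 (adjusted p = 0.143). The endonuclease ZC3H12A (regnase-1) differed by -0.20 ± 0.10 (adjusted p = 0.214). ZFP36 and ELAVL1 were not analysed here. Since both groups were transfected with RNA, sensors of RNA and DNA were listed too, and 0 of 8 tested rose and 2 fell, RIGI, from 7.99 and 8.12 to 7.35 and 7.21 (-0.77 ± 0.10, adjusted p = 0.0126), and STING1, from 6.67 and 6.62 to 5.91 and 6.15 (-0.62 ± 0.10, adjusted p = 0.0214). TLR3 (0.08 ± 0.11, adjusted p = 0.649) did not pass.

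Likeness to the 4 genes was measured as the Euclidean distance over the 4 arrays between log2 values with each gene's control mean taken off, so it rests on the same arrays and says nothing of function. Nearest to CCL2 were the ubiquitin ligase gene RNF26 (distance 0.10), CRISPLD1 (0.11) and CCL24 (0.12). PTGS2 was matched most closely by CD34 (0.02), which went from 6.05 and 5.73 to 5.25 and 5.05, then by RIMBP3C (0.10) and TMEM203 (0.16). TRAF1 had UPP1 (0.09), the pseudogene FGF7P6 (0.11) and the immune checkpoint ligand gene PDCD1LG2 (0.13) beside it. IRAK2 was followed by CCDC3 (0.02), ENPP1 (0.03) and TNC (0.03), the last of which encodes the matrix protein tenascin-C and went from 9.52 and 9.56 to 10.04 and 9.98.

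The chromosomal neighbours were looked up after the other results were known, as the 3 nearest named genes on either side of each of the 4 genes. Of these 24 genes 13 were below the intensity bound and 11 were tested, of which 1 was called, beside 15.8% of all tested genes. That gene, ODR4, near PTGS2, fell from 8.39 and 8.55 to 7.81 and 7.85 (-0.64 ± 0.09, limma adjusted p = 0.0153). The genes flanking TRAF1 were PHF19, a Polycomb-associated protein (0.19 ± 0.08, adjusted p = 0.147), and C5, which was below the bound at 3.92 and 3.83 against 3.90 and 3.97. Of the IRAK2 neighbours tested, TATDN2 differed by -0.07 ± 0.12 (adjusted p = 0.728), FANCD2OS by 0.08 ± 0.20 (adjusted p = 0.813), EMC3 by -0.26 ± 0.09 (adjusted p = 0.0999), CIDECP1 by 0.49 ± 0.18 (adjusted p = 0.118) and GHRLOS by 0.52 ± 0.20 (adjusted p = 0.130). The differences of CIDECP1 and GHRLOS did not pass but were as large as that of IRAK2. GHRLOS stood at 4.07 and 4.64 in control cells, with a mean under the bound. It thus entered the test only through the group where it was higher.

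CCL2 and PTGS2 are also abundant in macrophages and other leukocytes. Of 6 named leukocyte markers 4 were tested, and 0 passed in either direction by limma's adjusted test (0 at an unadjusted p under 0.05). All 4, which were CSF1R, LST1, CD68 and TYROBP, lay above the bound on every array. CSF1R was at 5.93 and 6.01 against 5.83 and 5.72, LST1 at 5.54 and 5.86 against 5.54 and 5.45, and TYROBP at 5.13 and 4.97 against 5.55 and 5.01. The summed linear signal of the 6, a sum led by its brightest probe sets, was 526 to 570 on the control arrays and 492 to 600 on the BRPF3 siRNA arrays, ranges that overlap. CD14 and LYZ were below the bound on all arrays, and CD68 differed by 0.01 ± 0.14 (adjusted p = 0.959). The part of leukocyte transcripts in the differences of the 4 genes was not tested. The mesenchymal and osteoblast markers VIM, FN1, SNAI2 and RUNX2 were above the bound on all arrays and IBSP and TWIST1 below it, with 0 of 8 tested passing (2 at an unadjusted p under 0.05). Of 7 tested epithelial markers KRT18 fell, from 10.43 and 10.39 to 9.98 and 9.86 (-0.49 ± 0.09, adjusted p = 0.0231), and 0 rose. EPCAM differed by 0.27 ± 0.08 (adjusted p = 0.0754) and CLDN4 by -0.53 ± 0.15 (adjusted p = 0.069), and neither passed. At an unadjusted p under 0.05 there were 3 of the 7 genes, and the difference was above 0 for 2 of the 7. A shift of these markers as a whole was not tested. The summed signal of the 9 named ones, to which KRT18 added most, was 1939 to 2008 on control arrays and 1546 to 1621 on BRPF3 siRNA arrays. The part of KRT18 and the other epithelial markers in the differences of the 4 genes was not tested. Of the 2 tested endothelial markers 0 passed (0 at an unadjusted p under 0.05). No probe set here is named for BRPF3, so the knockdown was not checked on these arrays.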

How the data were processed

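Total RNA of 4 U2OS samples was labelled with the maker's WT PLUS chemistry and hybridised to Affymetrix whole-transcript arrays, 1 per sample, per the labels' protocols. The authors deposited log2 values of 53617 probe sets made with RMA, per the submitters' processing notes; a version, settings and the make-up of the probe sets were not found in these sources. The median was 4.60 on each of the 4 arrays, and the values were used as deposited. RMA draws dim probe sets towards background, which shrinks their differences, and normalization removes shifts common to all transcripts.

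Probe sets with 1 gene symbol in the platform annotation (16098, all matched to RefSeq by identifier, 0 symbols changed) gave 14884 genes, each by its brightest probe set. A gene had to reach a mean of 4.59, the middle of the probe sets' own means. Groups, taken from the titles, entered lmFit and eBayes of limma 3.58.1 (R 4.3.3; 2 residual and 3.81 prior degrees of freedom), two-sided, with Benjamini-Hochberg adjustment over 10696 genes and calls at an adjusted p under 0.05. The procedure was tested on simulated data.

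The 4 genes, the lists and the tests were chosen with earlier results of these data known. Named from the lists were called genes, the strongest differences in either direction, and genes set by name. The motifs and the chromosomal neighbours were added later. The alternatives were quantile and cyclic loess normalization, median centring, a replicate block, other filters, the mean of probe sets, trended or robust eBayes and leaving out each array.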

Additional observations from a re-analysis of the deposited data

How the results depend on the processing

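The differences of CCL2, PTGS2, TRAF1 and IRAK2 kept their direction under each alternative run for them and moved by less than the spread between arrays. With an array left out they ran from -1.31 to -1.05 for CCL2, from -0.89 to -0.58 for PTGS2, from 0.76 to 1.11 for TRAF1 and from 0.42 to 0.52 for IRAK2. Separated arrays fix the direction there, and with 2 arrays a group the size cannot move by more than that spread. A replicate block and the mean of probe sets could not change the differences either. These runs thus add no support. The 26 called pathway genes moved to 7 without an intensity filter, where more and dimmer genes were tested, and to 40 with an intensity trend, and leaving out single arrays gave 0 to 12. All called genes, 1686, moved to 409 and 2645 under those settings, and leaving out single arrays gave 0 to 791; a lone array then borrows the spread of the other group. The cause of the change with the intensity trend was not tested.

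With the replicate number as a block, 1604 genes and 26 pathway genes were called, with CHUK (adjusted p = 0.0610) and TNIP3 (adjusted p = 0.0577) lost. Deviations of the arrays numbered 1 correlated at 0.14 over genes, and the labels give no pairing beyond the number. The number of arrays and the low signal of dim probe sets limit what could be detected.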
